A study of Macaca mulatta with 136 samples.

Results

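The comparison described here sets the RPE/choroid taken nasally in the eye of the rhesus macaque against the RPE/choroid taken from the periphery. RPE/choroid is the retinal pigment epithelium, a pigmented monolayer behind the photoreceptors, together with the vascular choroid beneath it. It rests on 8 of the 32 libraries of the series, 4 nasal and 4 peripheral, chosen by their tissue and location labels. Each location was sampled once in the right and the left eye of 2 adult animals, RM03 and RM04, as a 2 mm punch taken after death, and no allele, drug or other treatment is named for any group. The other RPE/choroid libraries, 4 from the fovea and 4 from the perimacula, and the matching retina libraries were used only for the spread between eyes and for comparison. According to the study, its peripheral punches were temporal, so nasal against periphery sets a nasal against a temporal position. The distance of the nasal punch from the fovea is not given in the sources used here. Any difference in eccentricity between the punches is therefore unknown and cannot be told apart from the side of the eye. Because the 4 eyes came from 2 animals, the p-values measure the spread between these eyes.

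The pigment epithelium takes up and recycles the retinoid chromophore of the photoreceptors, phagocytoses their shed outer segment tips and moves water, ions and lactate toward the choroid. The choroid below it holds a dense fenestrated capillary bed, arterioles and venules with smooth muscle and pericytes, melanocytes, fibroblasts, resident macrophages and the axons and Schwann cells of the ciliary nerves. In a bulk punch, fewer cells of a type and less RNA per cell cannot be told apart.

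Levels are CPM, expected counts per 1000000 of a library, scaled by TMM factors over the 16 RPE/choroid libraries, and the 4 values of a location are given in the order RM03 right eye, RM03 left eye, RM04 right eye and RM04 left eye. A gene is called at a Benjamini-Hochberg adjusted p under 0.05, and log2 fold changes are nasal minus periphery. The nasal libraries held 47431833 to 60064559 expected counts and the peripheral ones 62751409 to 69034378. The nasal, foveal and perimacular libraries were run on 5 lanes of the same 2 flow cells and the peripheral libraries on 2 lanes of their own flow cell, so that flow cell and periphery cannot be told apart in any value of this comparison and no within-batch value exists. RPE65, the retinoid isomerase that marks the pigment epithelium, was present in all 8 libraries, at 5429, 4507, 8362 and 7939 CPM in nasal and 4313, 463, 2516 and 5905 CPM in periphery, against 113 to 219 CPM in the nasal and peripheral retina libraries. The left eye of RM03 at the periphery stood apart, with the lowest RPE65 and the highest Schwann cell genes of the 4 peripheral libraries, and values that move with it are also given without it.

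In RPE/choroid, 7038 of 15789 genes tested were called between nasal and periphery (44.6%). Of these, 3444 were higher in nasal (21.8% of the genes tested) and 3594 higher in periphery (22.8%), and 1682 passed a log2 fold change of 1 in either direction. The direction was the same in 4 of 4 eyes for 6402 of the called genes. The 4 nasal and the 4 peripheral libraries did not overlap in 4780 of the genes tested (30.3%). With so large a share of the table called, the calls of a gene list below are read against these shares and against the median log2 fold change of all genes tested, -0.04.

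**Figure D1:**
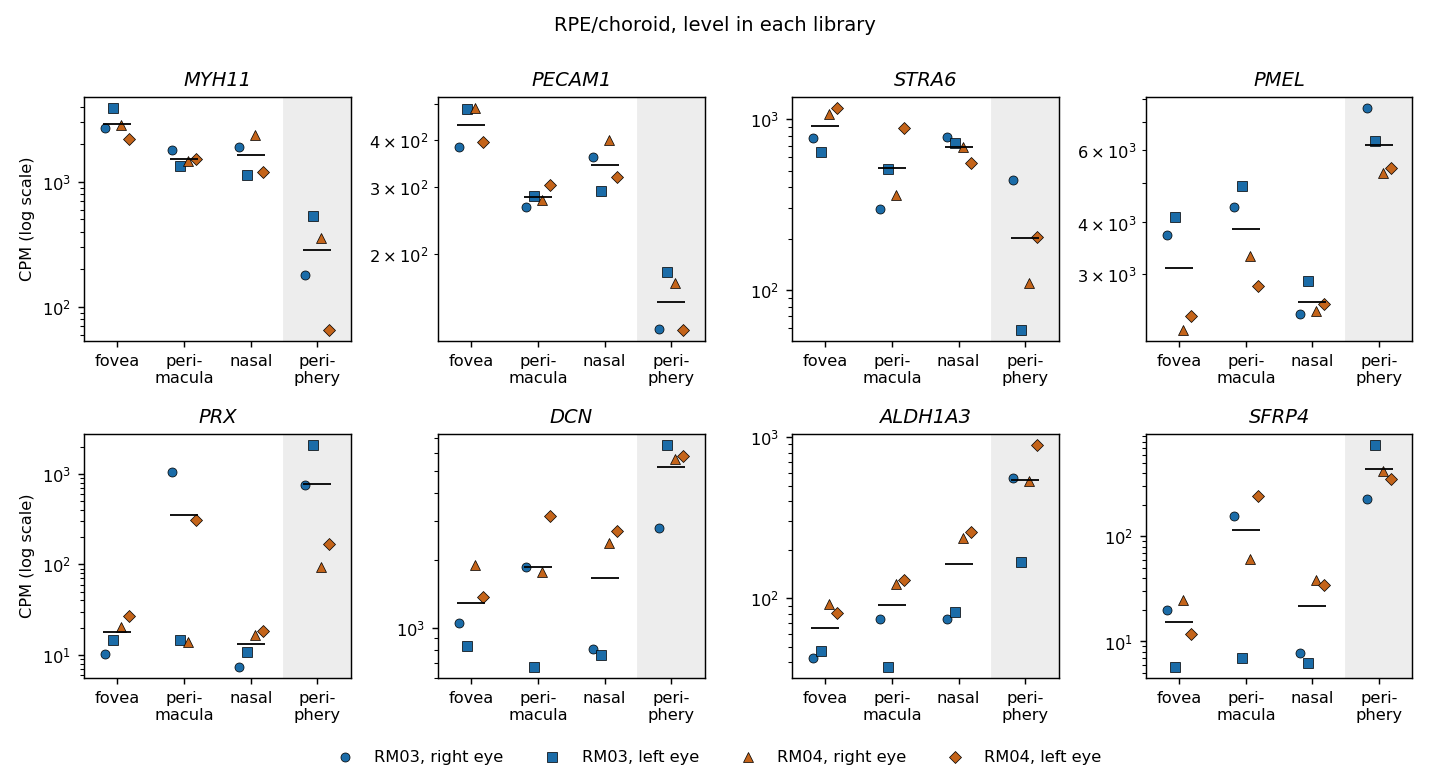
Level of 8 genes in the 16 RPE/choroid libraries by location (CPM, log scale), with the eye given by the symbol and the animal by the colour, the mean of the 4 libraries as a dash, and the periphery, which had its own flow cell, shaded. MYH11, PECAM1 and STRA6 are lower at the periphery than at the nasal location in every eye, PMEL, DCN, ALDH1A3 and SFRP4 are higher, and PRX spreads over 94.3 to 2075 CPM at the periphery against 7.34 to 18.4 CPM at the nasal location.

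The largest differences toward nasal fell on genes of different kinds. SLCO1C1, a thyroid hormone and organic anion transporter, was at 154, 122, 136 and 117 CPM in nasal and 43.8, 4.41, 8.38 and 18.5 CPM in periphery (log2 fold change 2.8 ± 0.58 SE, edgeR adjusted p = 0.00132). MYH11, the smooth muscle myosin heavy chain, was at 1887, 1131, 2391 and 1203 CPM in nasal and 179.5, 532, 355 and 65.5 CPM in periphery (log2 fold change 2.59 ± 0.47 SE, edgeR adjusted p = 0.000537). CEBPD, a transcription factor of acute phase and stress responses, was at 45.9, 39.3, 41.9 and 35.2 CPM in nasal and 5.18, 6.21, 8.94 and 4.63 CPM in periphery (log2 fold change 2.7 ± 0.19 SE, edgeR adjusted p = 1.25e-07). In these 3 genes the lowest nasal library lay above the highest peripheral one. SLITRK6, a neuronal transmembrane protein, differed by 2.82 ± 0.18 (edgeR adjusted p = 6.15e-08) with peripheral values of 2.36 to 6.31 CPM. GATA3 and BMP6, a zinc finger transcription factor and a bone morphogenetic protein, differed by 2.6 ± 0.36 and 2.59 ± 0.3, PRR16 by 2.65 ± 0.26, TREH, the enzyme that splits trehalose, by 2.54 ± 0.61 (2.23 without the peripheral library of the left eye of RM03), and SLCO1B3, an organic anion transporter, by 2.5 ± 0.42. AGR2, a protein disulfide isomerase of secretory epithelia, ranged over 1.06 to 74.2 CPM among the nasal libraries themselves and over 0 to 1.76 CPM at the periphery. DNAH11, an axonemal dynein chain, was called (log2 fold change 3.21 ± 0.99 SE, edgeR adjusted p = 0.017) but was at 0.514, 5.48, 0.565 and 0 CPM in periphery, so that the left eye of RM03 hardly differed, and its value was 5.52 without that eye and 5.26 without that peripheral library. The call of DNAH11 was lost when any other eye was left out (adjusted p = 0.0685, 0.136 and 0.056).

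WWTR1, which encodes the transcriptional coactivator TAZ of the Hippo pathway, had no counts in the 4 peripheral RPE/choroid libraries and 18.5, 27.2, 23.9 and 21.7 CPM in the nasal ones. Against a floor of 3 counts in a peripheral library, the lowest nasal library was at least 397-fold higher. The 4 peripheral retina libraries were also at 0 counts for WWTR1, while the nasal retina libraries held 11 to 79 counts, so its absence follows the periphery, and with it the flow cell, in both tissues. Besides WWTR1, the entries CNOT6L, HTR1D and MAPK6, named here after their values were seen, were at 0 counts in all 4 peripheral and at 10 counts or more in all 4 nasal RPE/choroid libraries. CNOT6L and MAPK6 have 2 and 4 entries under the same symbol, of which only 1 each was at 0 at the periphery. In the opposite direction PLEKHG7, SLC7A14 and FKBP1A were at 0 counts in all 4 nasal libraries, also named after their values were seen. The FKBP1A entry, 1 of 2, held 2447, 2635, 2425 and 2148 counts in the peripheral libraries and 0 in every foveal, perimacular and nasal RPE/choroid library.

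**Figure D2:**
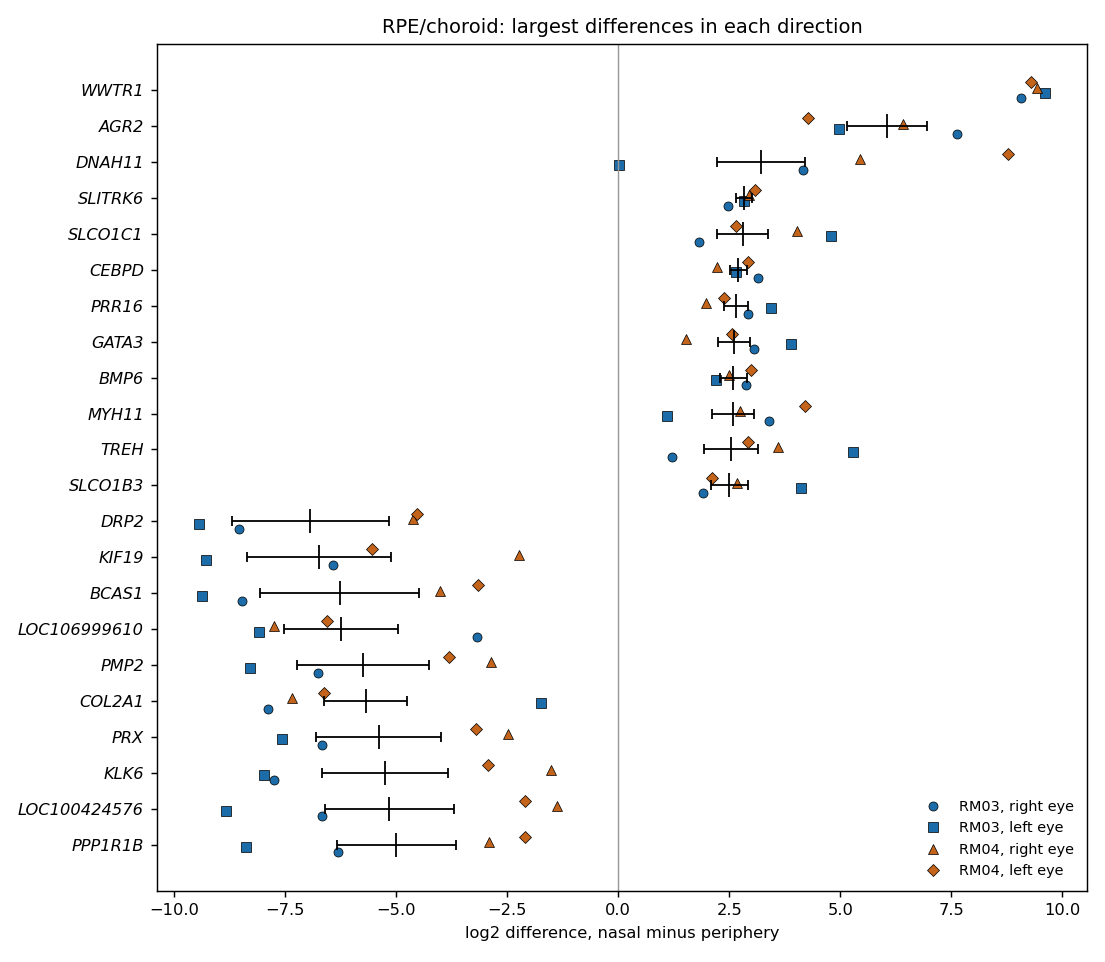
The genes with the largest log2 fold change that fit the naming rule, 12 higher in nasal and 10 higher in periphery, as the log2 CPM difference between the nasal and the peripheral library of each eye (symbols, prior count of 2) and the fitted log2 fold change ± SE (black), which is left out for WWTR1 because the peripheral libraries held no counts. Genes higher in periphery reach the largest sizes in both eyes of RM03, with the exception of LOC106999610 and COL2A1.

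Smooth muscle genes were higher in nasal. Of 20 genes of the contractile apparatus tested, 18 were higher in nasal and none was higher in periphery, with a median log2 fold change of 1.36. ACTA2, smooth muscle actin, was at 1783, 1341, 1775 and 947 CPM in nasal and 269, 668, 489 and 155 CPM in periphery (log2 fold change 1.91 ± 0.33 SE, edgeR adjusted p = 0.000363). LMOD1, leiomodin, which nucleates actin filaments in smooth muscle, was at 379, 374, 255 and 158 CPM against 44.6, 76.2, 59.3 and 26.1 CPM (log2 fold change 2.46 ± 0.24 SE, edgeR adjusted p = 2.17e-06). MYOCD, the coactivator that switches on the smooth muscle programme, was at 15.5, 11.2, 19.8 and 15.8 CPM against 2.48, 4.66, 2.81 and 2.67 CPM (log2 fold change 2.28 ± 0.23 SE, edgeR adjusted p = 3.48e-06). The groups did not overlap in any of the 3. The actin-binding protein TAGLN, 818, 748, 488 and 320.0 CPM in nasal and 297, 451, 352 and 187 CPM in periphery, overlapped between the locations but was higher in nasal in each eye (log2 fold change 0.83 ± 0.19 SE, edgeR adjusted p = 0.003). With single eyes left out, 14 to 18 of the smooth muscle genes stayed called toward nasal, and 19 without the peripheral library of the left eye of RM03. The summed level of the list ran from 4568 to 7654 CPM in nasal and from 1389.9 to 3857 CPM in periphery. The nasal sums lay below those of the fovea (7743 to 12504 CPM) and beside those of the perimacula (5493 to 7630.2 CPM). In retina the median of the same genes was 0.11, and for 10 of the 20 the change differed between the tissues, against 19.6% of all genes.

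Pericytes, the mural cells of capillaries, and the endothelium showed smaller differences in the same direction. Of 10 pericyte genes 7 were higher in nasal and none in periphery, with a median of 0.76. PDGFRB, the PDGF receptor of mural cells, was at 389, 418, 263 and 234 CPM in nasal and 196, 204, 169.5 and 144 CPM in periphery (log2 fold change 0.84 ± 0.09 SE, edgeR adjusted p = 6.07e-06). MCAM, a cell adhesion molecule of mural and endothelial cells, was at 497, 486, 396 and 236 CPM against 83.98, 153, 131 and 64.98 CPM (log2 fold change 1.87 ± 0.23 SE, edgeR adjusted p = 1.75e-05). RGS5, a regulator of G protein signalling in pericytes, was called (log2 fold change 0.55 ± 0.17 SE, edgeR adjusted p = 0.0159) but not without the right eye of RM03 (0.31, adjusted p = 0.05) or the left eye of RM04 (adjusted p = 0.0921). Between 4 and 7 pericyte genes were called toward nasal with single eyes left out, the lowest number without the left eye of RM04.

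Among 20 endothelial genes, 14 were higher in nasal and 1 in periphery, with a median of 0.66, and 13 or 14 stayed called toward nasal with any eye left out. PECAM1, the platelet and endothelial adhesion molecule CD31, was at 361, 293, 399 and 319.9 CPM in nasal and 126, 178, 167 and 126 CPM in periphery (log2 fold change 1.2 ± 0.13 SE, edgeR adjusted p = 8.12e-06). EMCN, endomucin, a sialomucin of capillary and venous endothelium, was at 189, 184, 209 and 215 CPM against 69.1, 71.9, 81.3 and 74.5 CPM (log2 fold change 1.42 ± 0.1 SE, edgeR adjusted p = 1.41e-07). ENG, the TGF-beta co-receptor endoglin, was at 669, 693, 491 and 422 CPM against 215, 209, 229 and 195 CPM (log2 fold change 1.39 ± 0.13 SE, edgeR adjusted p = 2.1e-06). All 3 were separated without overlap, with fitted folds of 2.3, 2.68 and 2.62. CDH5, VE-cadherin of endothelial junctions, differed less (log2 fold change 0.62 ± 0.07 SE, edgeR adjusted p = 8.28e-06). VWF, the von Willebrand factor of larger vessels, was at 493, 533, 534 and 560.0 CPM in nasal and 356, 371, 532 and 578 CPM in periphery and was not called (log2 fold change 0.25 ± 0.14 SE, edgeR adjusted p = 0.171).

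Signals that act on vessels followed a like direction. Of 19 genes of VEGF and angiopoietin signalling, 10 were higher in nasal and none in periphery, with a median of 0.64. VEGFA, the main ligand that the pigment epithelium secretes toward the choriocapillaris, was at 173, 153, 253 and 217 CPM in nasal and 131, 47.6, 178 and 179.7 CPM in periphery and missed the threshold (log2 fold change 0.64 ± 0.25 SE, edgeR adjusted p = 0.0522), with 0.41 without the peripheral library of the left eye of RM03. Its receptor FLT1 was at 129, 160.1, 175 and 223 CPM against 49.8, 56.1, 83.8 and 59.9 CPM (log2 fold change 1.46 ± 0.14 SE, edgeR adjusted p = 1.97e-06). The angiopoietin receptor TEK was at 123, 108, 141 and 115 CPM against 56.04, 64.1, 62.9 and 58.6 CPM (log2 fold change 1.01 ± 0.11 SE, edgeR adjusted p = 6.07e-06). Both receptors are endothelial and also count among the endothelial genes. PDGFC, a platelet-derived growth factor, was at 43.9, 51.5, 15.5 and 15.2 CPM against 8.22, 9.37, 6.82 and 5.88 CPM (log2 fold change 1.81 ± 0.22 SE, edgeR adjusted p = 1.77e-05), and the larger nasal values were those of RM03. THBS1, thrombospondin, an inhibitor of angiogenesis, was at 286, 386, 129 and 105 CPM against 70.5, 44.2, 42.9 and 56.8 CPM (log2 fold change 1.95 ± 0.28 SE, edgeR adjusted p = 8.29e-05), again with the higher nasal values in RM03. Without either eye of RM03 the median of the list was 0.4. Without the peripheral library of the left eye of RM03, 9 genes of the list were called toward nasal and 1 toward periphery.

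In the BMP and TGF-beta pathway 10 of 23 genes were higher in nasal and 4 in periphery, with a median of 0.4. The ligand BMP6 was at 26.1, 23.2, 16.1 and 10.2 CPM in nasal and 3.54, 5.02, 2.84 and 1.25 CPM in periphery (log2 fold change 2.59 ± 0.3 SE, edgeR adjusted p = 1.2e-05). The intracellular inhibitor SMAD6, itself a target of BMP signalling, was at 27.6, 25.5, 26.9 and 23.2 CPM against 8.58, 7.87, 11.8 and 7.07 CPM (log2 fold change 1.55 ± 0.14 SE, edgeR adjusted p = 1.11e-06). Among the ID genes, which encode BMP-responsive inhibitors of helix-loop-helix factors, ID2 was higher in nasal (log2 fold change 1.14 ± 0.14 SE, edgeR adjusted p = 2.44e-05) and ID4 higher in periphery (log2 fold change -0.99 ± 0.12 SE, edgeR adjusted p = 1.2e-05). The members therefore did not move one way. Leaving out single eyes left 5 to 10 calls toward nasal and 1 to 3 toward periphery, with 5 toward nasal without the left eye of RM03, 6 without the right eye of RM03, 2 toward periphery without the left eye of RM03 or the right eye of RM04 and 1 without the left eye of RM04. The median without the left eye of RM03 was 0.23.

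**Figure D3:**
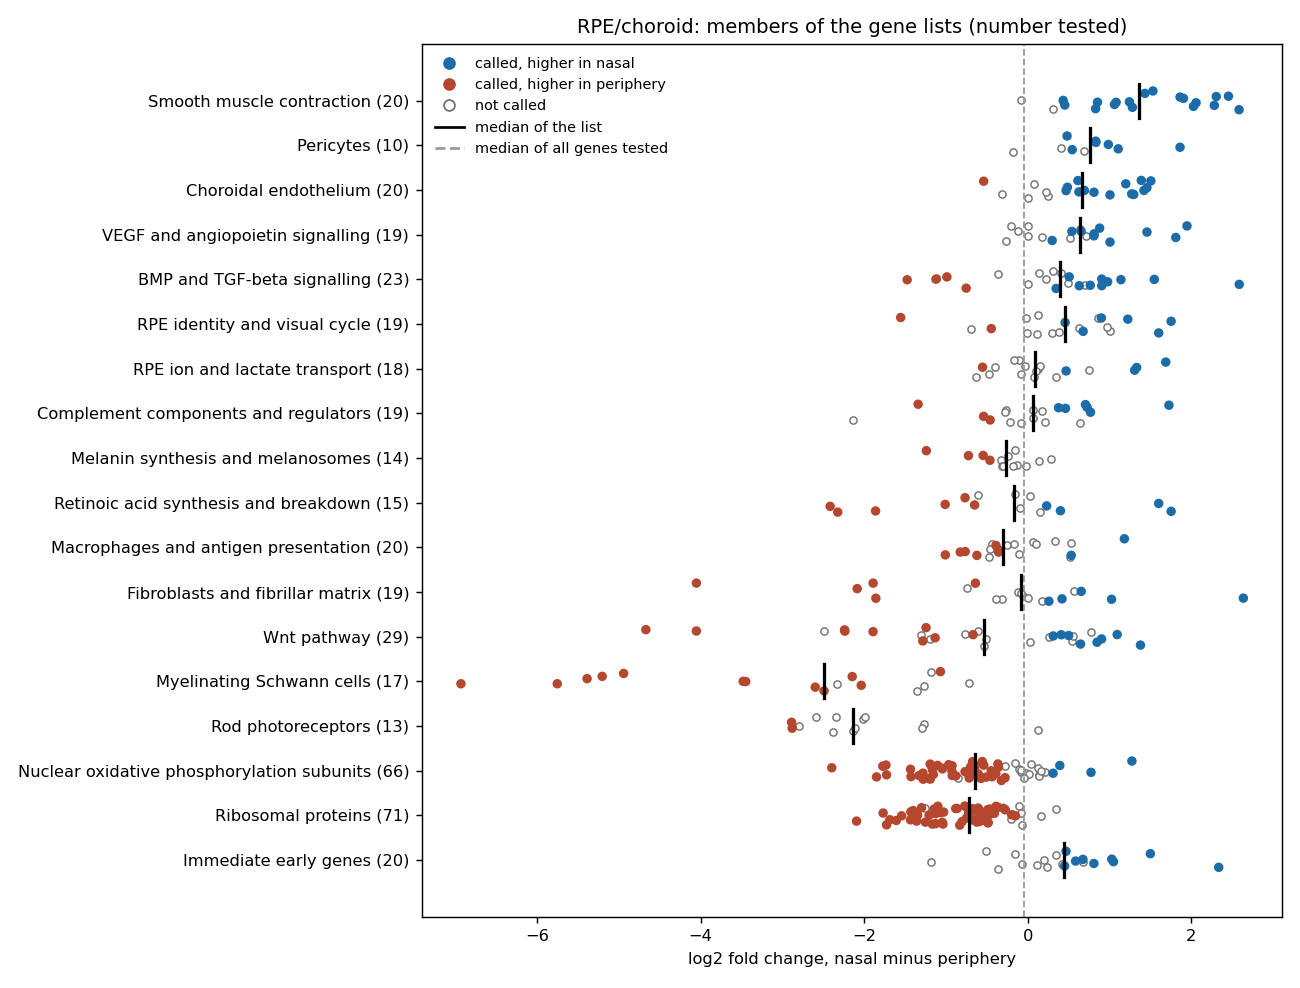
Log2 fold change between nasal and periphery (x axis) for the members of 18 gene lists (rows, number of genes tested in parentheses), with called genes in colour, the median of each list as a black bar and the median of all genes tested, -0.04, as a dashed line. The medians run from -2.49 for myelinating Schwann cell genes to 1.36 for smooth muscle genes, and ribosomal protein genes lie together on the periphery side.

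Pigment epithelium genes did not move as a block. Of 19 genes of RPE identity and the visual cycle, 6 were higher in nasal and 2 in periphery, a share of 42.1% called against 44.6% of all genes, with a median of 0.46. STRA6, the receptor that takes retinol into the pigment epithelium, was at 783, 722, 686 and 557 CPM in nasal and 438, 58.4, 109.7 and 204 CPM in periphery (log2 fold change 1.76 ± 0.5 SE, edgeR adjusted p = 0.0112). RDH10, a retinol dehydrogenase of the visual cycle, was at 216, 189, 287 and 262 CPM against 101, 29.7, 65.4 and 121 CPM (log2 fold change 1.6 ± 0.35 SE, edgeR adjusted p = 0.00205). Both were separated between the locations, and STRA6 was not called without the right eye of RM04 (adjusted p = 0.0741). RPE65 was higher in nasal in each eye and was not called (log2 fold change 1.01 ± 0.47 SE, edgeR adjusted p = 0.0962). BEST1, the chloride channel bestrophin, was at 540.1, 472, 583 and 493 CPM against 662, 166, 485 and 661 CPM (log2 fold change 0.12 ± 0.34 SE, edgeR adjusted p = 0.797), and RLBP1, the retinaldehyde-binding protein, at 1732, 1486, 2633 and 2306 CPM against 2475, 377, 1645 and 3105 CPM (log2 fold change 0.12 ± 0.4 SE, edgeR adjusted p = 0.831). In all 5 genes the lowest of the 8 values was that of the left eye of RM03 at the periphery. Without that library the log2 fold changes were 1.46 for STRA6, 1.38 for RDH10, 0.66 for RPE65, -0.15 for BEST1 and -0.2 for RLBP1, with a call for the first and the second only, and RPE65 was called without the right eye of RM03 (1.54, adjusted p = 0.032). SERPINF1, pigment epithelium-derived factor, an inhibitor of angiogenesis, was higher in periphery (log2 fold change -0.44 ± 0.13 SE, edgeR adjusted p = 0.0143), with the call lost without the right eye of RM03 (adjusted p = 0.0787) or the left eye of RM04 (adjusted p = 0.118). The other gene called toward periphery, the transcription factor PAX6, differed by more (log2 fold change -1.55 ± 0.49 SE, edgeR adjusted p = 0.0184). No gene of the list was called toward periphery without the right eye of RM03 or without the left eye of RM04. The summed level of the 19 genes was 14309.6 to 21814 CPM in nasal and 3984 to 23754 CPM in periphery. Without that peripheral library the median of the list was 0.25, without that eye 0.21 and without the right eye of RM03 0.7. Without that peripheral library 5 genes were called toward nasal and 3 toward periphery, and with single eyes left out 2 to 9 toward nasal, with 2 without the right eye of RM04, 3 without the left eye of RM03, 4 without the left eye of RM04 and 9 without the right eye of RM03.

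Melanosome genes, which the pigment epithelium shares with the choroidal melanocytes, were called toward the periphery where they were called. Of 14 tested, none was higher in nasal and 4 were higher in periphery, a share of 28.6% against 22.8% of all genes. In both directions together 44.6% of all genes were called. The median was -0.27, or -0.16 without the right eye of RM03. PMEL, the fibril protein of the melanosome, was at 2404, 2888, 2434 and 2541 CPM in nasal and 7597, 6306, 5270.2 and 5436 CPM in periphery (log2 fold change -1.24 ± 0.13 SE, edgeR adjusted p = 5.61e-06). TYRP1, a melanin-synthesizing enzyme, was at 1799, 1719.7, 1797 and 1851 CPM against 2292, 2481, 2566 and 2516 CPM (log2 fold change -0.46 ± 0.08 SE, edgeR adjusted p = 0.000261). GPR143, the ocular albinism receptor of melanosomes, was at 32.4, 27.9, 21.9 and 24.6 CPM against 52.7, 41.9, 45.7 and 34.7 CPM (log2 fold change -0.72 ± 0.13 SE, edgeR adjusted p = 0.00056). All 3 were separated without overlap, and in none of them was the left eye of RM03 the lowest peripheral library. TRPM1, a cation channel of melanocytes, was the fourth (log2 fold change -0.54 ± 0.14 SE, edgeR adjusted p = 0.00626) and was not called without the left eye of RM03 (adjusted p = 0.0683). TYR, tyrosinase, was at 458, 473, 552 and 634 CPM against 597, 484, 625 and 609 CPM (log2 fold change -0.13 ± 0.11 SE, edgeR adjusted p = 0.357), and DCT, dopachrome tautomerase, differed more between the animals than between the locations, with 13.6, 15.1, 55.8 and 79.8 CPM in nasal and 22.8, 9.399, 51.3 and 46.6 CPM in periphery (log2 fold change 0.14 ± 0.23 SE, edgeR adjusted p = 0.658), and was called toward nasal without the right eye of RM03 (0.52, adjusted p = 0.0227).

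The largest differences toward periphery were genes of myelinating Schwann cells. Of 17 tested, 12 were higher in periphery and none in nasal, with a median of -2.49. PRX, periaxin, a protein of myelinating Schwann cells, was at 7.34, 10.8, 16.7 and 18.4 CPM in nasal and 759, 2075, 94.3 and 170.1 CPM in periphery (log2 fold change -5.39 ± 1.41 SE, edgeR adjusted p = 0.00658). DRP2, which periaxin binds at the Schwann cell membrane, was at 0.5, 0.749, 0.708 and 1.64 CPM against 199.6, 545, 18.4 and 38.6 CPM (log2 fold change -6.93 ± 1.76 SE, edgeR adjusted p = 0.00563). Every peripheral library lay above every nasal one in both genes, and within the periphery both eyes of RM03 were several times above those of RM04, with the left eye of RM03 the highest. PMP2, the myelin P2 lipid-binding protein, differed by -5.75 ± 1.48, MLIP by -4.94 ± 1.19 and BCAS1, a gene of myelinating glia that is not on the list, by -6.27 ± 1.79. The call of BCAS1 was lost without the right eye of RM03 (adjusted p = 0.0568). PMP22, peripheral myelin protein, was at 132, 151, 297 and 285 CPM against 1398, 3702, 334 and 426 CPM and missed the threshold (log2 fold change -2.34 ± 0.92 SE, edgeR adjusted p = 0.053), which it passed without the right eye of RM04 (-3.08, adjusted p = 0.041). KIF19, KLK6 and PPP1R1B, named by their size and not on the Schwann cell list, showed the same order of the peripheral libraries, as did LOC100424576, which the gene name table gives as GJC3, a connexin (log2 fold change -5.15, and -3.2 without the left eye of RM03).

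Myelin genes were not confined to the peripheral punches. PRX was at 1059, 14.8, 13.9 and 309 CPM in the perimacula, where the right eye of RM03 and the left eye of RM04 held high levels, and at 10.2, 14.8, 20.4 and 27.3 CPM in the fovea. The summed level of the 17 genes was 437 to 751 CPM in nasal, 1122 to 19399 CPM in periphery and 549 to 12734 CPM in the perimacula. Without the peripheral library of the left eye of RM03 the median was -1.65 and 9 of the genes were called toward periphery, and with single eyes left out 9 to 13 were called, with medians of -3.08 to -1.51. In retina the median of the same genes was -0.11, and the change differed between the tissues for 10 of 17, against 19.6% of all genes.

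Genes of non-myelinating Schwann cells did not follow, with 3 of 15 higher in nasal and 5 higher in periphery and a median of 0.04, which ran from -0.33 without the left eye of RM04 to 0.3 without the left eye of RM03 or its peripheral library. Without the left eye of RM03 the numbers were 5 and 3, and without the right eye of RM04 they were 3 and 3. S100B, a calcium-binding protein of glia, was at 18.1, 20.8, 17.7 and 16.7 CPM in nasal and 122, 252, 52.6 and 55.98 CPM in periphery (log2 fold change -2.5 ± 0.35 SE, edgeR adjusted p = 5.18e-05), and ERBB3, the neuregulin receptor of Schwann cells, was higher in periphery by less (log2 fold change -0.5 ± 0.08 SE, edgeR adjusted p = 0.000182). CDH19, a cadherin of Schwann cell precursors, was at 109, 91.2, 88.1 and 109.5 CPM against 96.7, 132, 61.4 and 57.01 CPM (log2 fold change 0.26 ± 0.18 SE, edgeR adjusted p = 0.248) and was called without the peripheral library of the left eye of RM03 (0.45, adjusted p = 0.0244). Of 14 genes of peripheral axons and autonomic neurons 2 were called, both toward periphery, and none was called toward periphery without the right eye of RM03 or the right eye of RM04.

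Among stromal genes, both directions occurred. Of 19 fibroblast and fibrillar matrix genes 5 were higher in nasal and 5 in periphery, with a median of -0.08. DCN, decorin, a small proteoglycan that binds collagen fibrils, was at 807, 754, 2395 and 2689 CPM in nasal and 2768, 6502, 5628 and 5838 CPM in periphery (log2 fold change -1.86 ± 0.36 SE, edgeR adjusted p = 0.000903). LUM, lumican, a proteoglycan of the same family, was at 42.8, 33.5, 269 and 249 CPM against 198, 515, 485 and 435 CPM (log2 fold change -2.08 ± 0.55 SE, edgeR adjusted p = 0.00673), and at -1.22 without the left eye of RM03. COL6A1, a collagen VI chain, was at 414, 428, 493 and 457 CPM against 282, 344, 396 and 317 CPM (log2 fold change 0.42 ± 0.1 SE, edgeR adjusted p = 0.0035). MFAP4, a microfibril-associated glycoprotein, was also higher in nasal (log2 fold change 0.66 ± 0.17 SE, edgeR adjusted p = 0.00703). The largest nasal change of the list was that of POSTN, periostin, a matrix protein at low level here, with 1.43, 1.99, 2.04 and 1.99 CPM in nasal and 0.1, 0.139, 0.918 and 0.146 CPM in periphery (log2 fold change 2.64 ± 0.55 SE, edgeR adjusted p = 0.00149), without overlap, and 7.65 to 12.8 CPM in the fovea. The nasal values of DCN and LUM were higher in RM04 than in RM03, and in each eye they lay below the peripheral value of the same eye. With single eyes left out 3 to 5 of the list were called toward nasal, 3 of them without either eye of RM03, and 2 to 5 toward periphery, 2 of them without the left eye of RM03. The median was 0.05 without the peripheral library of that eye and -0.17 without the right eye of RM03. Of 20 cartilage and vitreous matrix genes 3 were higher in nasal and 4 in periphery. COL2A1, the fibrillar collagen of vitreous and cartilage, was near the detection limit in nasal, with 52 counts over 4 libraries, and at 19.05, 2.601, 11.5 and 24.8 CPM in periphery (log2 fold change -5.69 ± 0.93 SE, edgeR adjusted p = 0.000216). COL9A2, a collagen IX chain that decorates collagen II fibrils, was at 34.5, 47.7, 93.4 and 102 CPM in nasal and 271, 113, 246 and 315 CPM in periphery (log2 fold change -1.99 ± 0.47 SE, edgeR adjusted p = 0.00341). COL11A2, a collagen XI chain, was at 9.39, 8.89, 5.54 and 5.18 CPM against 39.7, 86.9, 14.6 and 15.9 CPM (log2 fold change -2.22 ± 0.44 SE, edgeR adjusted p = 0.00106), with the highest values in RM03. On the nasal side of that list were ACAN, aggrecan, and the transcription factors SOX9 and SOX5. ACAN was at 2.68, 2.44, 0.885 and 0.734 CPM in nasal, 4.87, 6.14, 2.11 and 2.71 CPM in the fovea and 0.537, 0.838, 0.617 and 0.918 CPM in the perimacula, against 1 count in all 4 peripheral libraries together, a ratio of nasal to periphery of 463 (95% counting interval 82.5 to 18340.2). In retina ACAN was at 0.069, 0, 0.085 and 0.103 CPM in nasal and 0.276, 0.32, 0.176 and 0.118 CPM in periphery. SOX9 was at 73.5, 69.5, 80.9 and 71.5 CPM against 53.7, 28.4, 34.8 and 48.5 CPM (log2 fold change 0.83 ± 0.16 SE, edgeR adjusted p = 0.000896), and SOX5, which did overlap between the locations, was higher in nasal in each eye (log2 fold change 0.63 ± 0.12 SE, edgeR adjusted p = 0.000734).

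Wnt pathway genes were called in both directions, and the genes of the secreted proteins SFRP4, SFRP1 and DKK3 were higher in periphery. Of 29 Wnt pathway genes 8 were higher in nasal and 9 in periphery, with a median of -0.53, and under upper quartile scaling 6 and 12. SFRP4, a secreted frizzled-related protein, was at 7.71, 6.19, 38.5 and 34.2 CPM in nasal and 227, 741, 416 and 356 CPM in periphery (log2 fold change -4.67 ± 0.91 SE, edgeR adjusted p = 0.000877). SFRP1, of the same family, was at 3.93, 5.18, 3.12 and 5.59 CPM against 165, 399, 10.8 and 21.3 CPM (log2 fold change -4.05 ± 1.28 SE, edgeR adjusted p = 0.0191), with the peripheral order of the Schwann cell genes and without a call when the right eye of RM03, the left eye of RM03 or the left eye of RM04 was left out (adjusted p = 0.0836, 0.0556 and 0.0562). DKK3, a Dickkopf family member, was at 67.8, 81.8, 142 and 132 CPM against 206, 205, 310.2 and 272 CPM (log2 fold change -1.28 ± 0.21 SE, edgeR adjusted p = 0.000232). On the nasal side were the co-receptor LRP6, at 86.5, 111, 69.5 and 62.3 CPM in nasal and 45.8, 47.9, 37.01 and 42.1 CPM in periphery (log2 fold change 0.91 ± 0.1 SE, edgeR adjusted p = 5.45e-06), and the transcription factor LEF1 (log2 fold change 1.38 ± 0.18 SE, edgeR adjusted p = 3.08e-05). With single eyes left out the Wnt genes called toward nasal numbered 4 to 7 and those called toward periphery 4 to 8, with 4 toward nasal without either eye of RM03, and 5 and 4 toward periphery without the right eye of RM03 and the left eye of RM04.

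Retinoic acid, made from retinaldehyde, is a signal of eye growth and of positional patterning. Of 15 genes of its synthesis, binding and breakdown 4 were higher in nasal, STRA6 and RDH10 among them, and 6 in periphery. ALDH1A3, a retinaldehyde dehydrogenase, was at 74.2, 81.9, 236 and 256 CPM in nasal and 559, 167, 533 and 891 CPM in periphery (log2 fold change -1.86 ± 0.32 SE, edgeR adjusted p = 0.000293). ALDH1A1, another dehydrogenase of that family, was at 441, 418, 384 and 444 CPM against 678, 806, 578 and 603 CPM (log2 fold change -0.65 ± 0.11 SE, edgeR adjusted p = 0.000232). ALDH1A2, the third, was at 210.3, 246, 394 and 482 CPM against 177, 235, 399 and 393 CPM (log2 fold change 0.15 ± 0.15 SE, edgeR adjusted p = 0.433). The first and the second were higher in periphery in each eye, and for the third the locations overlapped. CYP1B1, a cytochrome P450 mutated in congenital glaucoma, was at 26.03, 32.01, 10.9 and 7.23 CPM against 45.4, 46.6, 20.1 and 25.1 CPM (log2 fold change -1.01 ± 0.18 SE, edgeR adjusted p = 0.000383), and the receptor RARG was higher in periphery (log2 fold change -0.76 ± 0.14 SE, edgeR adjusted p = 0.000694) while RARA was higher in nasal (log2 fold change 0.4 ± 0.09 SE, edgeR adjusted p = 0.00192). With single eyes left out 2 to 4 of the list were called toward nasal, with 2 without the right eye of RM04.

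Positional transcription factors of the developing eye differed in part. FOXD1, which marks the temporal retina in development, was at 3.09, 4.16, 3.66 and 3.82 CPM in nasal and 10.7, 9.55, 4.89 and 8.28 CPM in the temporal periphery (log2 fold change -1.16 ± 0.23 SE, edgeR adjusted p = 0.000941). EPHA3, an ephrin receptor of axon guidance, was at 12.9, 16.7, 28.7 and 21.7 CPM against 8.94, 7.82, 12.2 and 13.3 CPM (log2 fold change 0.91 ± 0.15 SE, edgeR adjusted p = 0.000218). Of the 8 genes of nasal-temporal patterning tested, 2 were called toward nasal, 1 of them without the left eye of RM04, and 1 toward periphery. Of 15 genes of the dorsal-ventral axis 7 were higher in nasal and 3 in periphery, the latter 1 without the left eye of RM04. TBX2, a dorsal T-box factor, was at 15.6, 15.6, 21.98 and 24.96 CPM against 5.48, 9.03, 10.5 and 8.37 CPM (log2 fold change 1.21 ± 0.14 SE, edgeR adjusted p = 1.31e-05), and the related TBX3 was also higher in nasal (log2 fold change 1.31 ± 0.21 SE, edgeR adjusted p = 0.000153). NR2F1, an orphan nuclear receptor, was at 29.7, 31.4, 36.9 and 30.2 CPM against 65.6, 79.2, 60.3 and 53.6 CPM (log2 fold change -1.0 ± 0.13 SE, edgeR adjusted p = 3.83e-05). Of the Iroquois and ZFHX homeobox genes 4 of 8 were higher in nasal and 1 in periphery: IRX2 was at 22.9, 20.6, 11.97 and 11.004 CPM in nasal and 3.81, 4.83, 6.87 and 2.09 CPM in periphery (log2 fold change 1.82 ± 0.32 SE, edgeR adjusted p = 0.000345), ZFHX3 at 45.3, 50.5, 36.02 and 32.9 CPM against 16.2, 23.9, 15.2 and 14.4 CPM (log2 fold change 1.24 ± 0.12 SE, edgeR adjusted p = 2.1e-06), and ZFHX4 was higher in periphery (log2 fold change -0.99 ± 0.21 SE, edgeR adjusted p = 0.0017). The nasal values of IRX2 were higher in RM03 than in RM04. Leaving out the right eye of RM03 left 2 Iroquois and ZFHX genes called toward nasal.

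Of 20 macrophage genes 7 were higher in periphery and 2 in nasal, with a median of -0.3, which was -0.14 without the peripheral library of the left eye of RM03 and -0.12 without that eye. CD74, the invariant chain of MHC class II, was at 1893, 1933, 2050.3 and 1855 CPM in nasal and 3157, 4263, 3052 and 3223 CPM in periphery (log2 fold change -0.82 ± 0.11 SE, edgeR adjusted p = 4.34e-05). CD14, the lipopolysaccharide co-receptor, was at 166, 157, 113 and 118 CPM against 286, 333, 181 and 168 CPM (log2 fold change -0.76 ± 0.08 SE, edgeR adjusted p = 4e-06). AIF1, a macrophage and microglia protein, was at 38.7, 36.6, 23.4 and 27.3 CPM against 69.9, 68.1, 58.8 and 52.2 CPM (log2 fold change -1.01 ± 0.1 SE, edgeR adjusted p = 2.39e-06). In contrast, the scavenger receptors CD163 (log2 fold change 0.07 ± 0.15 SE, edgeR adjusted p = 0.737) and MRC1 (log2 fold change 0.1 ± 0.2 SE, edgeR adjusted p = 0.71) were not called. The 2 genes called toward nasal were MS4A7 (log2 fold change 0.53 ± 0.14 SE, edgeR adjusted p = 0.00568) and LYVE1 (1.18 ± 0.33, edgeR adjusted p = 0.0102), the latter named after its value was seen. With single eyes left out 4 to 7 genes were called toward periphery, 7 only where the left eye of RM03 was the one left out and 4 in each other case, and none toward nasal without the right eye of RM03. CCL26, an eotaxin, was at 68.6, 59.97, 156 and 221 CPM in nasal and 375, 403, 458 and 427 CPM in periphery (log2 fold change -1.92 ± 0.23 SE, edgeR adjusted p = 1.44e-05), and CXCL12, the stromal chemokine, at 248, 341, 279 and 198 CPM against 95.2, 121, 150.0 and 121 CPM (log2 fold change 1.12 ± 0.17 SE, edgeR adjusted p = 0.000133), so that chemokines, 4 of 22 called in each direction and 2 toward periphery without either eye of RM03, did not move together.

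Complement genes were called at about the rate of all genes, 9 of 19 (47.4%), 6 toward nasal and 3 toward periphery, the latter 5 without the right eye of RM03. CFD, the activating protease of the alternative pathway, was at 105, 93.2, 35.95 and 31.4 CPM in nasal and 19.9, 14.5, 22.6 and 13.2 CPM in periphery (log2 fold change 1.73 ± 0.32 SE, edgeR adjusted p = 0.000592). CD55, which accelerates convertase decay, was higher in nasal (log2 fold change 0.71 ± 0.06 SE, edgeR adjusted p = 7.39e-07), and CD59, which blocks the membrane attack complex, was higher in periphery (log2 fold change -0.54 ± 0.06 SE, edgeR adjusted p = 4.87e-06). The central component C3 was at 227, 269.8, 1134 and 762 CPM against 383, 353, 608 and 751 CPM (log2 fold change -0.08 ± 0.21 SE, edgeR adjusted p = 0.796). Of 18 genes of inherited macular and pigment epithelium disease 6 were higher in nasal and 1 in periphery. TIMP3, a metalloproteinase inhibitor of Bruch's membrane, was at 4765, 4701, 4582 and 4022 CPM in nasal and 2444, 1781, 1888 and 3187 CPM in periphery (log2 fold change 0.97 ± 0.18 SE, edgeR adjusted p = 0.000656). EFEMP1, fibulin-3, was at 1547, 2038, 1126 and 938 CPM against 631, 677, 665 and 753 CPM (log2 fold change 1.0 ± 0.2 SE, edgeR adjusted p = 0.00106). CTNNA1, alpha-catenin of adherens junctions, was at 525, 489, 530.4 and 497 CPM against 273, 302, 262 and 288 CPM (log2 fold change 0.86 ± 0.06 SE, edgeR adjusted p = 1.02e-07). These 3 were separated without overlap, whereas ABCA4, a retinoid flippase, was at 237, 238, 238 and 222 CPM against 285, 92.5, 130.2 and 232 CPM (log2 fold change 0.34 ± 0.34 SE, edgeR adjusted p = 0.453), and its value without the peripheral library of the left eye of RM03 was 0.13.

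Photoreceptor RNA was present at low levels in both locations. The summed level of 13 rod genes was 87.3 to 261 CPM in nasal and 169 to 1299 CPM in periphery, and no rod gene of the list was at 0 in all 8 libraries. SAG, rod arrestin, was at 8.503, 46.7, 28.02 and 30.4 CPM in nasal and 388, 52.2, 92.7 and 286 CPM in periphery (log2 fold change -2.88 ± 0.98 SE, edgeR adjusted p = 0.0286), and was called neither without the right eye of RM03 (-1.64, adjusted p = 0.206) nor without the left eye of RM04 (adjusted p = 0.132), nor with the eye as a block (adjusted p = 0.0884). The other gene of the 2 called, NR2E3, a rod transcription factor, depended on the same eyes (-1.3, adjusted p = 0.375, without the right eye of RM03, adjusted p = 0.154 without the left eye of RM04, and 0.128 with the block). The number of rod genes called toward periphery ran from 0, without the right eye of RM03 or the left eye of RM04, to 7, without the left eye of RM03. The share of rod RNA in the other gene groups was not tested. With the mean rod level as a covariate in the fit of each gene, 6235 genes were called in place of 7038. In that fit 8 genes of RPE identity and the visual cycle were called toward nasal and 0 toward periphery (median 0.8). Without the covariate these numbers were 6 and 2 (median 0.46). Cone genes went from 2 and 1 (median -0.86) to 5 and 0 (median 1.28). Smooth muscle calls toward nasal fell from 18 to 15. Myelinating Schwann cell calls toward periphery fell from 12 to 9.

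Housekeeping groups differed as well. Of 71 ribosomal protein genes 63 were higher in periphery and none in nasal (median -0.72), and of 66 nuclear subunits of oxidative phosphorylation 47 were higher in periphery and 4 in nasal (median -0.64). RPS18 was at 372, 357, 377 and 392 CPM in nasal and 1039.8, 1085, 1145 and 1091 CPM in periphery (log2 fold change -1.54 ± 0.05 SE, edgeR adjusted p = 9.87e-10). ATP5MG, a subunit of ATP synthase, was at 7.27, 7.17, 6.53 and 6.47 CPM against 50.2, 30.7, 28.9 and 35.2 CPM (log2 fold change -2.39 ± 0.14 SE, edgeR adjusted p = 3.29e-08). Levels of RPS18 were 377, 371, 417 and 401 CPM in the fovea and 428, 392, 445 and 426 CPM in the perimacula, above nasal in each eye (nasal minus the central mean -0.12 ± 0.04, edgeR adjusted p = 0.172) and far below the periphery, which had its own flow cell. Between nasal and the central mean 7 of the 71 ribosomal genes were called by edgeR and 19 by DESeq2, with a median of -0.1. In retina, run on the same flow cells, the medians were -1.12 and -0.56. For 66 of the ribosomal and 30 of the oxidative phosphorylation symbols the symbol is shared by more than 1 entry, so which entry holds the gene is uncertain. Immediate early genes were called toward nasal in 9 of 20 and toward periphery in none, with KLF2, a shear-responsive endothelial factor, at 37.6, 25.7, 93.8 and 66.3 CPM against 5.25, 8.76, 18.97 and 9.51 CPM (log2 fold change 2.34 ± 0.23 SE, edgeR adjusted p = 2.58e-06) and EGR1 at 65.5, 45.8, 208 and 180.1 CPM against 19.3, 30.7, 74.4 and 34.7 CPM (log2 fold change 1.5 ± 0.27 SE, edgeR adjusted p = 0.000484), while FOS was not called (log2 fold change 0.2 ± 0.27 SE, edgeR adjusted p = 0.565). The part of RNA handling, flow cell and library preparation in these values was not tested.

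The retina of the same eyes, sampled at the same locations and run on the same flow cells, gives a second view of the comparison. Of the 7038 genes called in RPE/choroid, 5730 had a retina estimate of the same sign (81.4%), against 58.8% of the genes not called. The change itself differed between the tissues in 3215 of 16382 genes (19.6%), 1859 of them with the more positive value in RPE/choroid and 1356 with the more negative one, or 1452 and 1616 under upper quartile scaling. Of the genes called in RPE/choroid, 2143 differed between the tissues. TRDN, triadin, a muscle protein of the calcium release complex, was higher in nasal RPE/choroid (1.21) and lower in nasal retina (-3.84, edgeR adjusted p = 2.69e-09), a tissue difference of 5.05 ± 0.46 (edgeR adjusted p = 2.35e-07). FLNC, filamin C, an actin cross-linker of muscle, had values of 1.02 and -2.67, with a difference of 3.7 ± 0.35 (edgeR adjusted p = 2.77e-07). CA12, a carbonic anhydrase of epithelia, had 1.33 and -1.62, with a difference of 2.97 ± 0.48 (edgeR adjusted p = 0.000147), and its RPE/choroid value was 1.08 without the peripheral library of the left eye of RM03. These 3 genes had opposite signs in the tissues. RASSF9 and CPAMD8, the other 2 of the 5 most positive differences among genes called in RPE/choroid with a mean log2 CPM of at least 3 there, were also higher in nasal RPE/choroid (1.06 and 1.85), with retina values of -2.36 and -0.98, of which the second was not called (edgeR adjusted p = 0.235). The 5 most negative differences under the same limit were those of DRP2, BCAS1, FA2H, a fatty acid hydroxylase of myelin lipids, PMP2 and KIF19, from -7.27 for DRP2 to -5.78 for KIF19. The RPE/choroid call of FA2H (-4.7) was lost without the left eye of RM04 (adjusted p = 0.0544). COL2A1 and SFRP4 were higher in periphery by similar amounts in retina, with retina values of -5.66 and -3.96 and no call for the difference (edgeR adjusted p = 0.979 and 0.752).

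**Figure D4:**
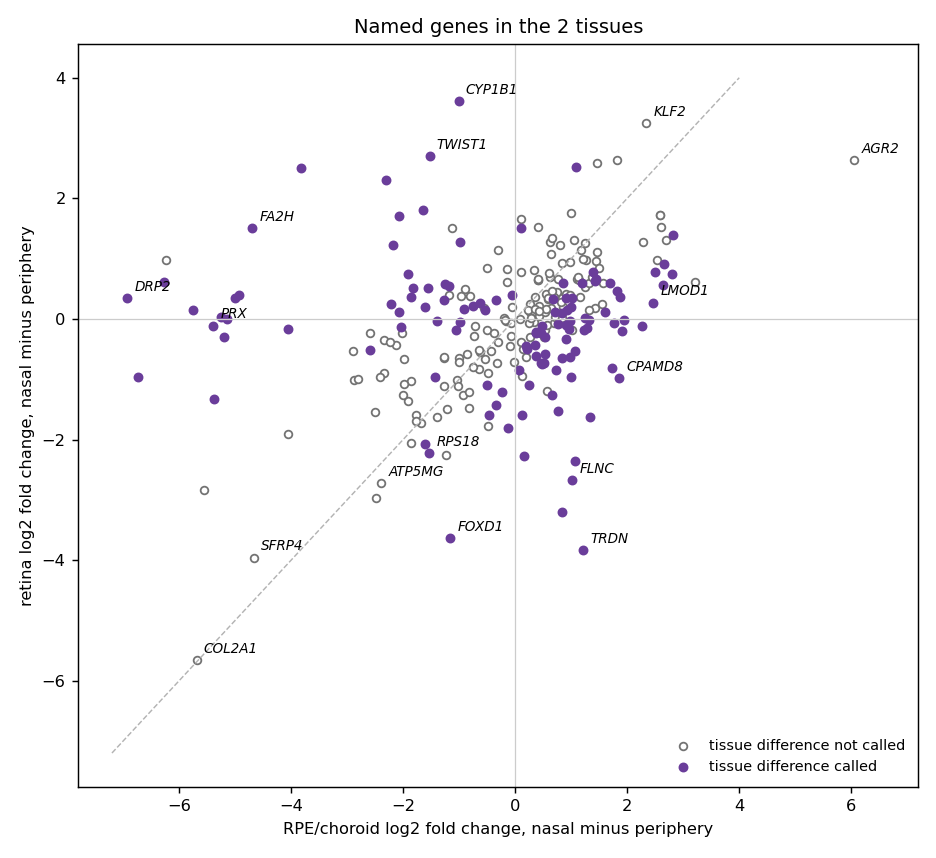
Log2 fold change between nasal and periphery in RPE/choroid (x axis) and in retina (y axis) for 281 named genes with over 3 counts in each location, with the genes whose change differed between the tissues (119) filled and equal change in both tissues as a dashed line. Schwann cell genes such as PRX and DRP2 lie far to the left near 0 in retina, and COL2A1 and SFRP4 lie near the line. Over all genes tested 19.6% differed between the tissues, and some of the named genes were chosen by that difference.

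Within the shared flow cells, the nasal RPE/choroid can be set against the mean of the fovea and the perimacula, which shares its nasal libraries with the comparison above. Here 334 of 15789 genes were called (2.12%), 145 higher and 189 lower in nasal, and 3002 had an unadjusted p under 0.05. MAB21L1, a gene of eye and lens development, was at 7.298, 8.57, 11.7 and 9.34 CPM in nasal, 1.204, 0.77, 2.35 and 1.297 CPM in the fovea and 2.303, 1.16, 1.87 and 1.69 CPM in the perimacula, a log2 difference of 2.55 ± 0.26 (edgeR adjusted p = 0.00107), and at 20.9, 8.24, 12.7 and 19.01 CPM in the periphery. PRUNE2, a BCH domain protein of neural tissue, was at 5.37, 8.33, 10.3 and 10.8 CPM in nasal, 2.96, 2.501, 5.47 and 4.57 CPM in the fovea and 2.03, 1.13, 3.02 and 2.94 CPM in the perimacula (1.59 ± 0.19, edgeR adjusted p = 0.00355) and at 11.3, 7.39, 30.2 and 23.4 CPM in the periphery. SLCO1B3 was at 18.5, 17.6, 44.7 and 43.2 CPM in nasal, 3.35, 1.35, 9.62 and 8.85 CPM in the fovea, 1.72, 3.12, 13.1 and 7.57 CPM in the perimacula and 4.95, 0.976, 6.96 and 9.91 CPM in the periphery (2.54 ± 0.33, edgeR adjusted p = 0.00505). For SLCO1B3 every nasal library lay above all 12 others of the tissue, for MAB21L1 every nasal library lay above the foveal and perimacular ones, and for PRUNE2 the lowest nasal library lay just below the highest foveal one. SPHKAP, an anchoring protein of kinase A, was lower in nasal, at 2.59, 3.17, 3.19 and 1.36 CPM against 12.7, 10.4, 11.8 and 17.1 CPM in the fovea and 28.1, 29.2, 19.2 and 17.5 CPM in the perimacula (-2.76 ± 0.37, edgeR adjusted p = 0.00505), and at 1.61 to 5.61 CPM in the periphery, where the difference from nasal was -0.15 ± 0.38 (edgeR adjusted p = 0.777). GPR143 was lower in nasal than at each other location (-0.91 ± 0.12 against the central mean, edgeR adjusted p = 0.00505), and SLC22A17, a lipocalin receptor, was lower on average than at each other location (-0.49 ± 0.07, edgeR adjusted p = 0.00505). NTNG1, netrin-G1, was higher in nasal than centrally (1.2 ± 0.16, edgeR adjusted p = 0.00505), and AKR1B15, an aldo-keto reductase whose symbol 3 entries share, was lower (-1.01 ± 0.11, edgeR adjusted p = 0.00163).

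**Figure D5:**
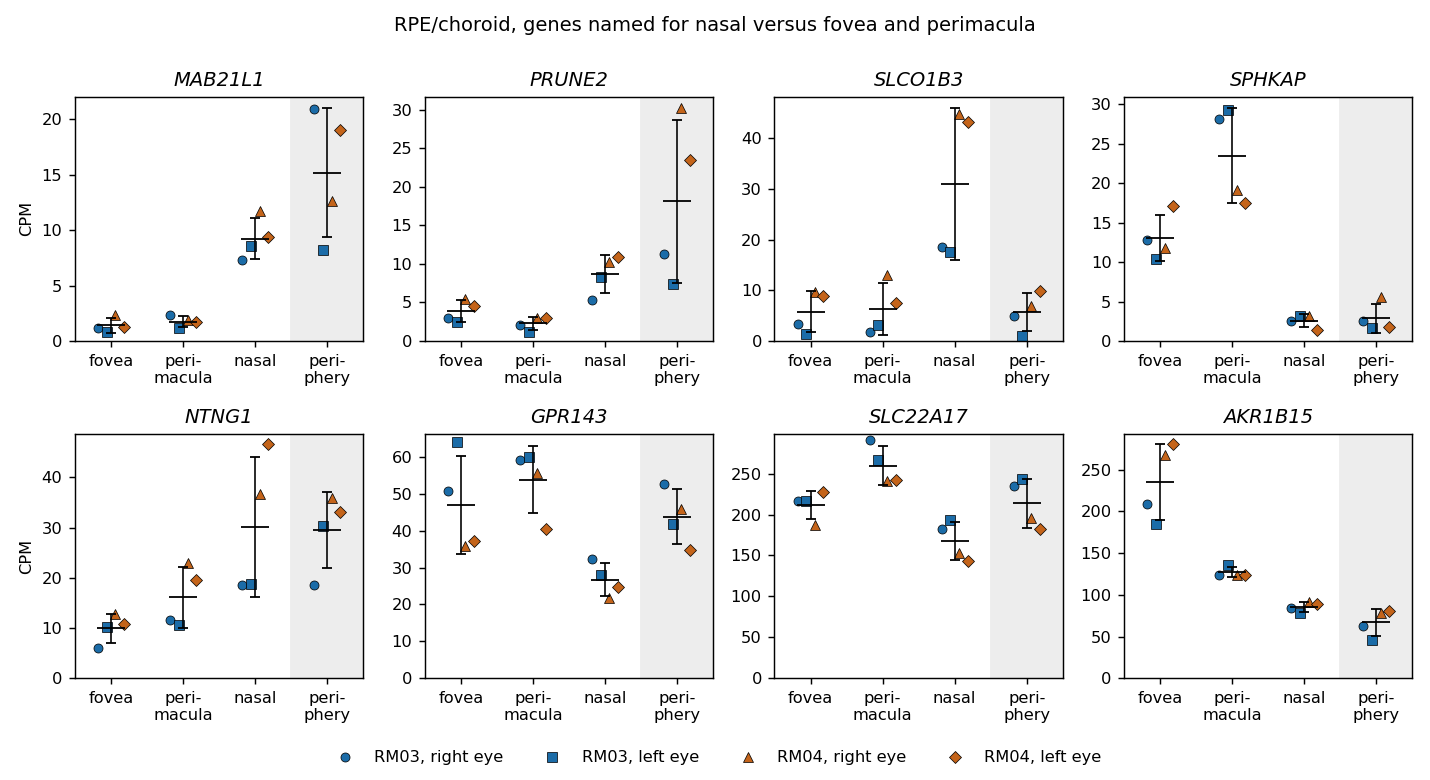
Level in each RPE/choroid library (CPM) of the 8 genes with the lowest adjusted p between nasal and the mean of fovea and perimacula, with eyes as symbols, the mean as a dash, the SD as a bar and the periphery, on its own flow cell, shaded. SLCO1B3 is highest at the nasal location in all 4 eyes, and MAB21L1 is at 7.298 to 11.7 CPM there against 0.77 to 2.35 CPM in the fovea.

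The smooth muscle, endothelial and pericyte lists held no gene called by edgeR between nasal and the central mean, with 0 of 20, 0 of 20 and 0 of 10 genes and medians of -0.22, 0.02 and 0.0. An unadjusted p under 0.05 was reached by 2 genes of each list, and DESeq2 called 0, 1 and 1. The central mean averages 2 locations that differed, and nasal lay between them in median summed level. In fovea, nasal and perimacula these medians were 9648, 6858 and 5853 CPM for smooth muscle. They were 4129, 3410 and 2965 CPM for endothelium and 1829, 1759 and 1461 CPM for pericytes. The lack of calls therefore does not equate nasal with either location. The count of 334 rested on all 4 eyes, with 21 genes called without the right eye of RM03, 47 without its left eye, 7 without the right eye of RM04 and 0 without its left eye, where 1635 had an unadjusted p under 0.05, and 171 with the eye as a block. Without the peripheral library of the left eye of RM03, which enters only the spread, 662 were called.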

How the data were processed

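The RNA was poly-A selected and sequenced on a HiSeq4000. The authors quantified each lane with Salmon 0.13 on the rhesus build Mmul_8.0.1 and summarised it per gene with tximport, and the deposited values are expected counts (length-scaled), in a column named TPM. Here the lanes of each library were summed and rounded, and 10 repeated entries were dropped, leaving 19422. The main test was edgeR 4.0.16 (R 4.3.3, limma 3.58.1): TMM factors, filterByExpr with a minimum count of 10, a quasi-likelihood F test over the 16 RPE/choroid libraries with location and monkey as terms, with p-values adjusted by Benjamini-Hochberg across the genes tested and called under 0.05. The difference between the tissues was the interaction over 32 libraries. Per-eye differences used log2 CPM with a prior count of 2, bounds used a floor of 3 counts in a library, and a ratio on 1 to 3 counts has an exact binomial (Clopper-Pearson) interval; both cover counting error only. The fits were tested on simulated data. Tables and plots were made with Python 3.11.15, pandas 2.3.3 and matplotlib 3.10.9.

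The genes and the 36 gene lists were chosen with earlier results of these data known. Named were the 12 largest changes in each direction among called genes with a single entry, a mean log2 CPM of at least 3 at the higher location and 1 direction in 4 of 4 eyes, the first 3 members of each list and up to 5 more by adjusted p, the 8 genes with the lowest adjusted p between nasal and the central mean, and the 5 largest tissue differences each way among genes called in RPE/choroid at that level. A symbol with several entries was represented by the entry with the largest total. Some items are not reported here.

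The replicate number marks the eye, so same-numbered nasal and peripheral punches came from the same eye. Over the 1000 most variable genes their deviations from the location means correlated at 0.226 to 0.364 (mean 0.274), against a mean of 0.333 for fellow eyes of an animal, and a fit with the eye as replicate block was made as an alternative. The others were DESeq2 1.42.0, RLE and upper quartile scaling, no or a stricter count filter, no covariate, only the compared libraries, 2 lanes per library, a rod signal covariate, a fold limit and leaving out each eye. Leaving out the peripheral library of the left eye of RM03 was added after its levels were seen. No pair of libraries at a location agreed within sampling noise.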

Additional observations from a re-analysis of the deposited data

Results flagged for a closer look

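Among 135 of the genes named in the text, 12 of the 270 groups of 4 libraries checked held a library set apart from the other 3. Chance alone would set apart about 1 group in 20, so this number is no larger than chance would give. The libraries are listed for their values only. At the periphery the left eye of RM03 was the lowest for TREH (0.155 CPM) and CA12 (8.21 CPM) and the highest for CD74 (4263 CPM) and TBX3 (6.63 CPM). The right eye of RM03 was the lowest peripheral library for DCN (2768 CPM) and LAMA2 (117 CPM), and the right eye of RM04 was the highest for LEF1 (20.3 CPM), POSTN (0.918 CPM) and ACAN (0.0141 CPM, 1 count). At the nasal location the right eye of RM03 was the lowest for POSTN (1.43 CPM), the right eye of RM04 was the lowest for MLIP (1.27 CPM) and the left eye of RM04 the lowest for ABCA4 (222 CPM).

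For 67 of these 135 genes the nasal minus periphery change differed between RPE/choroid and retina by the interaction test (edgeR, Benjamini-Hochberg adjusted p under 0.05). Over all genes tested the share was 19.6%. Some of the named genes were chosen by this difference or by a large change in RPE/choroid, so their number is no separate result. The values that follow are log2 differences, RPE/choroid change minus retina change. Among smooth muscle, pericyte and endothelial genes they were 2.11 for ACTA2, 1.48 for TAGLN, 2.19 for LMOD1, 0.74 for PDGFRB, 1.5 for MCAM, 0.61 for PECAM1, 1.35 for VWF, 0.8 for EMCN, 0.61 for ENG and 0.66 for TEK. Genes that act on vessels or bind growth factors stood at 1.35 for PDGFC, 1.98 for THBS1, 0.57 for LRP6, -0.93 for ID4, -3.87 for SFRP1 and 1.01 for EPHA3. In pigment epithelium and melanosome genes the difference was 1.84 for STRA6, 1.5 for RDH10, 1.72 for BEST1, 1.69 for TYR, 1.15 for TYRP1, -0.67 for TRPM1, 2.42 for ALDH1A2, -4.61 for CYP1B1, 0.27 for CTNNA1, 1.6 for TIMP3 and 1.96 for EFEMP1. Schwann cell and myelin genes, and genes with the same order of libraries, were at -7.27 for DRP2, -6.87 for BCAS1, -6.19 for FA2H, -5.88 for PMP2, -5.78 for KIF19, -5.34 for MLIP, -5.34 for PPP1R1B, -5.28 for KLK6, -5.26 for PRX, -5.17 for LOC100424576 and 0.61 for ERBB3. Stromal, immune and complement genes gave -2.19 for LUM, 2.08 for POSTN, 9.85 for ACAN, 0.84 for LAMA2, 1.34 for SULF1, 1.93 for MFAP4, -2.46 for COL11A2, 0.92 for CD163, -0.97 for CD14, 2.55 for CFD and 0.61 for CD55. The fitted value of ACAN rests on 1 peripheral count and depends on the prior count. Regulators and others gave 1.13 for OCLN, 1.1 for ATP1B2, 0.35 for HSP90AA1, 2.47 for FOXD1, -2.26 for ZFHX4, 1.44 for SLITRK6, 2.08 for SLCO1C1, 1.73 for SLCO1B3, 1.76 for PRR16, 5.05 for TRDN, 3.7 for FLNC, 3.42 for RASSF9, 2.97 for CA12, 2.84 for CPAMD8, -1.07 for PRUNE2, -0.67 for SLC22A17, 0.58 for AKR1B15 and 0.69 for RPS18.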

How the results depend on the processing

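The count of genes called between nasal and periphery, 7038, lay between 5228 (only the compared libraries) and 7557 (DESeq2) over the other tools, scalings, filters, terms and lanes, and between 5497 and 7149 with an eye or the peripheral library of the left eye of RM03 left out. With the eye as replicate block in place of the monkey it was 6688. An added limit of 1 on the absolute log2 fold change left 1682 genes here, 43 between nasal and the central mean and 1159 for the tissue difference, by its construction. Upper quartile scaling gave 3006 higher in nasal and 4088 higher in periphery. The count between nasal and the central mean, 334, moved most: 995 with DESeq2, 1489 with only the compared libraries, 171 with the replicate block, 43 without a covariate, and 0 to 662 with a library or an eye left out. The tissue difference, 3215, fell to 2078 with only the compared libraries and 1542 without a covariate, and was 1811 to 3411 with a library or an eye left out. The cause of these moves was not tested.

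Of 213 called named genes, DESeq2, RLE scaling and no filter left 213 called, the block 204, the rod covariate 190, only the compared libraries 182 of 212, no covariate 163, and the leave-outs 171 of 212 to 201. None changed direction. ARR3 and GNAT2, cone genes not called (-0.86 and -0.16), turned to 1.28 and 1.29 with the rod covariate, and the cause was not tested. Of 540 refitted list medians, 521 moved by less than 1 SD over the eyes. That limit is wide where the eyes differ, so the number says little about stability. The rod list, with an SD of 2.39, stayed within it although its median went from -2.13 to -0.91 without the right eye of RM03. With 4 eyes of 2 animals, and periphery tied to its flow cell, the values describe these animals and location was not separable from the flow cell.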

Other observations

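Other gene groups of the pigment epithelium and its basement membrane were called in part, at shares under that of all genes. In both directions together 27.8% of the transport genes were called, 21.1% of the epithelial junction genes and 29.2% of the basement membrane genes. The share was 40.9% for matrix proteases and inhibitors and 44.6% for all genes tested. Of 18 genes of ion and lactate transport in the pigment epithelium 4 were higher in nasal and 1 in periphery, with a median log2 fold change of 0.09. These numbers were 2 and 3 without the right eye of RM04 and 4 and 0 without the right eye of RM03, and the median was -0.12 without the peripheral library of the left eye of RM03. ATP1B2, a beta subunit of the sodium-potassium pump, was at 497, 466, 541 and 478 CPM in nasal and 237, 68.6, 129 and 178 CPM in periphery (log2 fold change 1.69 ± 0.29 SE, edgeR adjusted p = 0.000341), without overlap. SLC16A1, a lactate transporter, was at 192, 179, 217 and 184 CPM against 118, 16.8, 43.5 and 139 CPM (log2 fold change 1.31 ± 0.48 SE, edgeR adjusted p = 0.039), with the lowest value in the left eye of RM03. It was not called without that peripheral library (0.98, adjusted p = 0.0574), without that eye (adjusted p = 0.12) or without the right eye of RM04 (adjusted p = 0.145). Of 19 epithelial junction genes 3 were higher in nasal, or 5 without the right eye of RM03, and 1 in periphery, with OCLN, occludin of tight junctions, at 18.4, 16.8, 17.2 and 17.1 CPM against 8.77, 10.1, 8.55 and 8.29 CPM (log2 fold change 0.96 ± 0.13 SE, edgeR adjusted p = 3.59e-05). Of 24 basement membrane genes 6 were higher in nasal and 1 in periphery, and 2 to 7 were called toward nasal with single eyes left out, 2 without the right eye of RM03 and 3 without the right eye of RM04. LAMA2, a laminin chain, was at 207, 224, 324 and 330.1 CPM against 117, 176, 165 and 169.5 CPM (log2 fold change 0.76 ± 0.11 SE, edgeR adjusted p = 9.86e-05). Of 22 matrix proteases and inhibitors 7 were higher in nasal and 2 in periphery. SULF1, an extracellular sulfatase that trims heparan sulfate, was at 1487, 1612, 1330.4 and 1087 CPM against 545, 448, 529.9 and 720.4 CPM (log2 fold change 1.32 ± 0.19 SE, edgeR adjusted p = 8.29e-05), while ADAMTS1, a secreted metalloproteinase, was at 24.98, 18.4, 109 and 118 CPM against 71.9, 189, 287 and 259.9 CPM (log2 fold change -2.0 ± 0.33 SE, edgeR adjusted p = 0.000228). Each ADAMTS1 value of RM04 lay above the value of RM03 at the same location.

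Chaperone genes of the heat shock and unfolded protein response were called toward nasal in 9 of 14 and toward periphery in 2, a share of 78.6% against 44.6% of all genes. HSP90AA1, a cytosolic chaperone, was at 493, 511, 299.8 and 309.9 CPM in nasal and 332, 293, 172 and 213 CPM in periphery (log2 fold change 0.67 ± 0.08 SE, edgeR adjusted p = 1.96e-05), so that each nasal value was above the peripheral value of the same eye and the animals differed as well. DDIT3, a stress-induced transcription factor, went the other way (log2 fold change -0.82 ± 0.11 SE, edgeR adjusted p = 3.19e-05). Of 14 lymphocyte genes 1 was higher in nasal and 2 in periphery, with 0 to 2 and 2 to 3 called when single eyes were left out, and of 4 mast cell genes GATA2 alone was called, toward nasal (log2 fold change 1.18 ± 0.16 SE, edgeR adjusted p = 3.26e-05), a gene that endothelium also expresses. The lymphocyte share called was 21.4%, against 44.6% of all genes. Of 11 cone photoreceptor genes 2 were higher in nasal and 1 in periphery (27.3% called), with 1 to 3 and 0 to 1 called when single eyes were left out. CNGB3, a subunit of the cone cyclic nucleotide-gated channel, was at 310.4, 260.1, 353 and 338 CPM in nasal and 187, 26.04, 76.02 and 176 CPM in periphery and kept its call only with the right eye of RM03 left out (adjusted p = 0.00694, against 0.0685, 0.107 and 0.0572 without the others) or without the peripheral library of the left eye of RM03 (adjusted p = 0.0324), whereas the cone genes ARR3 and GNAT2 were at 5.002 to 10.2 and 0.92 to 2.27 CPM in nasal. In the nasal and peripheral retina libraries CNGB3 was at 25.4 to 66.4 CPM, below its nasal RPE/choroid level, and ARR3 at 510 to 990 CPM. The CNGB3 level in RPE/choroid is therefore not read here as a measure of cone RNA. Of 14 genes of inner retinal neurons and Mueller glia 3 were called in each direction, of 11 ciliary epithelium genes 4 toward nasal and 2 toward periphery, and of 15 HOX, PITX and other positional factors 3 and 5. These were 42.9%, 54.5% and 53.3% of the genes of each list, against 44.6% of all genes tested. With single eyes left out 2 to 6 genes of inner retina were called toward periphery, 0 to 2 ciliary epithelium genes toward nasal (0 without the left eye of RM03) and 1 or 2 positional factors toward nasal (1 without the right eye of RM03). EBF1, a transcription factor of mural and stromal cells, was at 42.97, 47.5, 30.6 and 26.8 CPM in nasal and 14.6, 22.9, 21.1 and 13.3 CPM in periphery (log2 fold change 0.99 ± 0.18 SE, edgeR adjusted p = 0.000446).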
